A study of Mus musculus with 3 samples.

Results

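The 39 genes described here code for proteins that find, signal and repair damage to DNA, and all 39 were among the 13891 genes of the expression table. The list was drawn up by role, with no threshold on values, and was read in 8 role groups: the Fanconi anaemia pathway of crosslink repair (6 genes), homologous recombination (7), damage signalling (7), mismatch repair (3), nucleotide excision repair (5), base excision and direct repair (7), end joining (3) and translesion synthesis (1). Busulfan is an alkylating drug with a pair of reactive ends, so it can leave an altered base or tie bases together within or across the strands of DNA. An interstrand crosslink stops a replication fork. The Fanconi anaemia proteins mark and unhook it, a translesion polymerase copies past the remnant, and homologous recombination restores the broken strand, while the Atm and Atr kinases halt the cell cycle. Base excision and nucleotide excision repair remove altered bases without a fork, so non-dividing cells can use them too. In the gut, division is confined to the crypt, where stem and transit-amplifying cells replace the enterocytes, goblet cells and Paneth cells.

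The data were single-cell transcriptomes of the small intestine of male ICR mice, 3 weeks old when busulfan was given, from 3 treatment groups. AOS 0 received neither busulfan nor alginate oligosaccharide (AOS). B + A 0 received 1 dose of busulfan at 40 mg/kg body weight and no AOS, and B + A 10 received the same busulfan plus AOS at 10 mg/kg. All groups were dosed by daily gavage for 2 weeks, with water in place of AOS in AOS 0 and B + A 0. Per the study's methods, cells of 6 mice were pooled for each group, and each group was 1 library, so treatments have no replicate check here and the mice cannot be told apart. Titles and treatment labels put each library in its group, but the source names of 2 of the 3 libraries disagree with them, and the titles were followed. Transcripts were counted as unique molecular identifiers (UMIs). AOS 0 held 4106 cells with a median of 7371 UMIs, B + A 0 held 3195 with 6407, and B + A 10 held 5352 with 3505, and any pair of libraries shared 17 to 34 cell barcodes.

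Cells were clustered without the 39 genes, and the clusters were named from marker lists. Cycling crypt cells numbered 2375 (18.8% of all cells), in a cluster led by Olfm4 and Hist1h2ao with S phase markers and another led by Ube2c with markers of G2 and mitosis. Other crypt cells numbered 887, in a single cluster led by Olfm4 and Slc12a2, both genes of the crypt base. Enterocytes numbered 4642, goblet cells 2418 and Paneth cells 432, and 1899 cells (15%) were left out, among them T cells, enteroendocrine cells and tuft cells. The markers went against a reading of the other crypt cluster as resting. Summed over 19 genes, its S phase list stood at 94.3% to 104% of the level in cycling crypt cells and its list for G2 and mitosis at 33.9% to 39.8%. In enterocytes the same lists stood at 9.28% to 10.1% and 2.76% to 4.34%, and no gene of the lists for the 5 classes was at 0 in any class. Goblet cell markers in enterocytes stood at 1.36% to 2.87% of their goblet cell level, and the part of free RNA in levels that low was not tested.

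Promoter sequences are shown for 5 genes on which the results turn. Each is the 250 bases before the start of a protein coding gene of RefSeq in the mouse genome build GRCm38.p6, written 5′ to 3′ on the strand of the gene, in lower case with matches to 3 motifs in capitals. The motifs, searched on both strands, were E2F (spelled TTCGCGC or TTGGCGC or TTCCCGC or TTGCCGC, letters linked to genes of S phase entry), CHR (spelled TTTGAA or TTCGAA, linked to genes of G2 and mitosis) and CCAAT. Fancm, on chromosome 12, held 2 E2F matches and CCAAT. Apex1, on chromosome 14, held all 3 motifs and was far higher in crypt cells than in enterocytes, as was Rad51ap1 on chromosome 6, which held CCAAT on the opposite strand, read as ATTGG, and no E2F letters. Ung, on chromosome 5, showed the largest difference between S phase and G2 and held none of the motifs, and Xpa, on chromosome 4, was the member that was lower in cycling crypt cells than in enterocytes.
Fancm promoter, chr12:65075353-65075602, plus strand: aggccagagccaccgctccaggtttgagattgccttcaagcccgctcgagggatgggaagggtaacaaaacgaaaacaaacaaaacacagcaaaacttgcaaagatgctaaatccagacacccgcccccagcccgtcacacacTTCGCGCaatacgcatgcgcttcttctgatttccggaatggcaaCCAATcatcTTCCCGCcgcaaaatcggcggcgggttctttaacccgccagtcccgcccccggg
Apex1 promoter, chr14:50924699-50924948, plus strand: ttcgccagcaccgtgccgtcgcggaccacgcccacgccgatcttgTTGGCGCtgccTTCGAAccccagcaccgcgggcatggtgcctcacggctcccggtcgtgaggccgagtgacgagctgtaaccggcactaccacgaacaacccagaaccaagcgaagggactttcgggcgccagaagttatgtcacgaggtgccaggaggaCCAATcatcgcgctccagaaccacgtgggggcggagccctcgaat
Rad51ap1 promoter, chr6:126939588-126939837, minus strand: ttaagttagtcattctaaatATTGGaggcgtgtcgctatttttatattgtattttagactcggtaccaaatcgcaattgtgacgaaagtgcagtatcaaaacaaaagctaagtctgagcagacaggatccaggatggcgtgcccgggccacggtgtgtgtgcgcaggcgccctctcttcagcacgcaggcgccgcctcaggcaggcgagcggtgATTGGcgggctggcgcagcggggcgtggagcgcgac
Ung promoter, chr5:114130185-114130434, plus strand: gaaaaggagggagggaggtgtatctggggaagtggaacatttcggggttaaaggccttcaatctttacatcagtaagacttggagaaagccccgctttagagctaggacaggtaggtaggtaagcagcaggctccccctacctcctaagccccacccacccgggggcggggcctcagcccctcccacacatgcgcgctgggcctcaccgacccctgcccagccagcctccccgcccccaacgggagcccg
Xpa promoter, chr4:46196312-46196561, minus strand: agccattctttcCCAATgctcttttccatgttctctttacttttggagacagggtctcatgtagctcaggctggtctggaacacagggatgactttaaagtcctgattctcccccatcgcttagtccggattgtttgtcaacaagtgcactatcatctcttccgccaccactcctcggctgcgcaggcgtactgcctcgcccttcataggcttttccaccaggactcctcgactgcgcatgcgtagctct

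A promoter entry was found for 29 of the 39 genes, and 10 (Fancd2, Usp1, Rad50, Nbn, H2afx, Exo1, Xpc, Ddb2, Prkdc and Rev3l) had none. E2F letters were present in 9 of the 29 (31%), namely Fancm, Brca2, Bard1, Chek2, Topbp1, Mdc1, Ercc1, Apex1 and Xrcc6, against 2435 of 27025 genes of the RefSeq table (9.01%). The 2 matches of Topbp1 overlap each other. CCAAT was present in 17 (58.6%) against 37.5% of all genes, and the CHR letters in 3 (Bard1, Atr and Apex1, 10.3%) against 19.6%. These are matches of letters and were not read as binding sites.

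Repair genes were higher in the crypt than in the differentiated cells. Summed over all 39, they took 6.03 to 6.35 times as large a share of UMIs in cycling crypt cells as in enterocytes of the same library, and 5.94 to 6.11 times in other crypt cells. The sum in goblet cells was 1.23 ± 0.0191 times (SD over 3 libraries), and in Paneth cells 0.837 to 1.07 times, that of enterocytes. Levels below are CPM, the UMIs of a gene per 1000000 UMIs of a class in a library, given for AOS 0 first, B + A 0 next and B + A 10 last. They count molecules near the 3′ end and are not scaled to gene length, so they are compared between cells and not between genes. The lowest of 3 libraries in cycling crypt cells lay above the highest in enterocytes for 37 of the 39 genes, against 48.9% of the 10063 genes tested below, the ranges of Ercc4 overlapped, and Xpa lay wholly below. Against goblet cells the count was 38, with Xpa overlapping, where 61.8% of genes tested did the same, and against Paneth cells it was 39, where 90% of genes did. The level in enterocytes was a median of 12.2% of that in cycling crypt cells, under 5% for 8 genes (Fanci, Brca1, Bard1, Rad51ap1, Rad54l, Chek1, Exo1 and Ung) and highest for Xpa at 157%. Among the 21 clusters, 19 members had their highest level in the S phase cluster, 7 in other crypt cells (Atr, Chek1, Msh6, Apex1, Ung, Xrcc6 and Prkdc) and 0 in the cluster of G2 and mitosis, and the remaining 13 in small clusters left out of the classes.

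**Figure D1:**
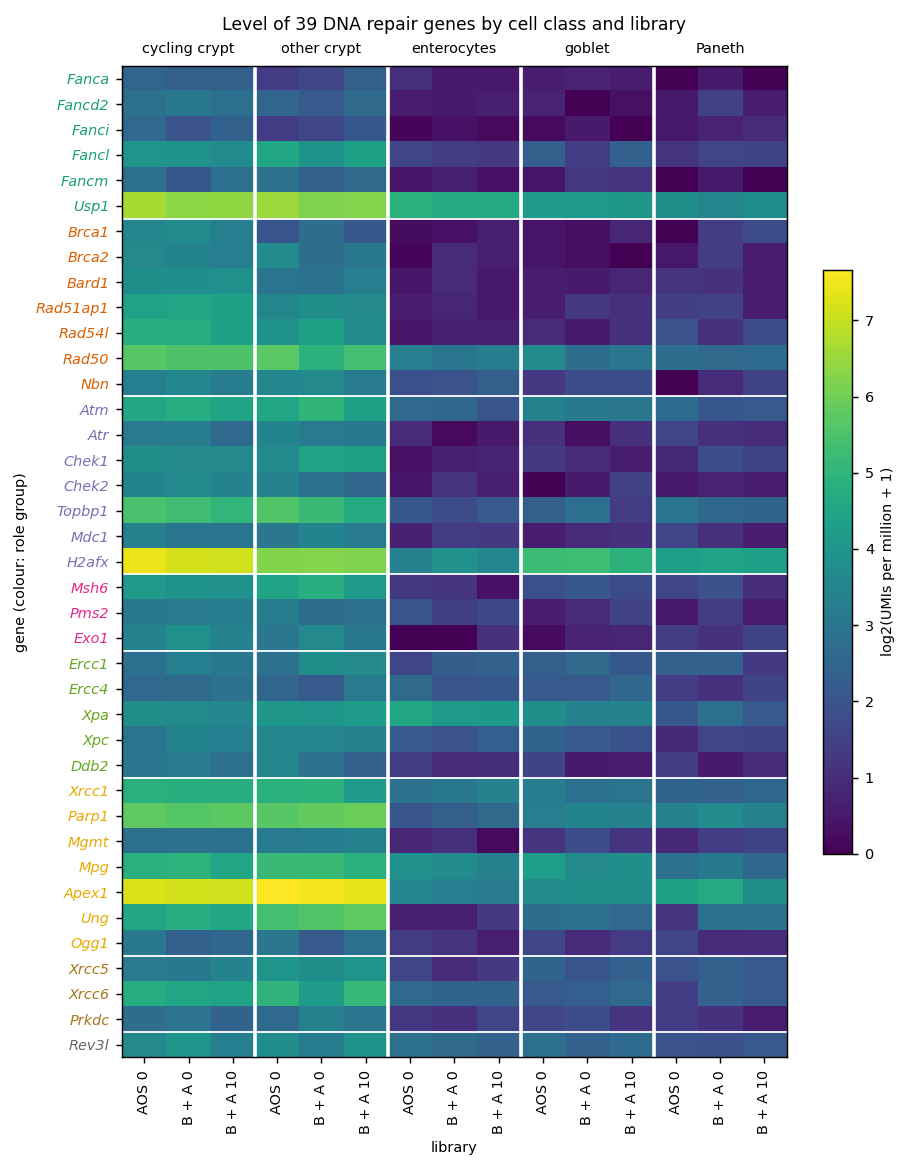
Level of each of the 39 genes (rows, coloured by role group) in 5 cell classes and 3 libraries (columns), as log2(CPM + 1) on the colour scale. The cycling crypt and other crypt columns are lighter than the 3 columns of enterocytes in nearly every row, with Xpa and Ercc4 as the exceptions.

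The class differences were tested with limma on log2(CPM + 1), with the library as a block, so the spread is that over 3 libraries that also differ in treatment. Of the 39 genes, 37 passed the minimum mean of 2 CPM, and Fanca and Fanci did not. In cycling crypt cells 35 of the 37 were higher than in enterocytes and 1 (Xpa) was lower at an adjusted p under 0.05. Crypt cells and enterocytes differ in much of their transcriptome. Of 10063 genes tested, 45.5% were called higher and 26.6% lower, and among the 8538 genes used neither for clustering nor for naming cells the share called higher was 43%. The median difference of the members was 2.22 on the log2 scale against 0.29 over all genes tested. In other crypt cells 35 members were higher than in enterocytes and none lower, against 44.3% of all genes called higher, with medians of 2.18 and 0.22, and the exceptions were Ercc4 and Xpa (0.36 ± 0.24 and -0.17 ± 0.21, adjusted p = 0.179 and 0.459 in limma). The classes were formed from other genes of the same cells, so these p-values measure how steady a difference was over the libraries.

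**Figure D2:**
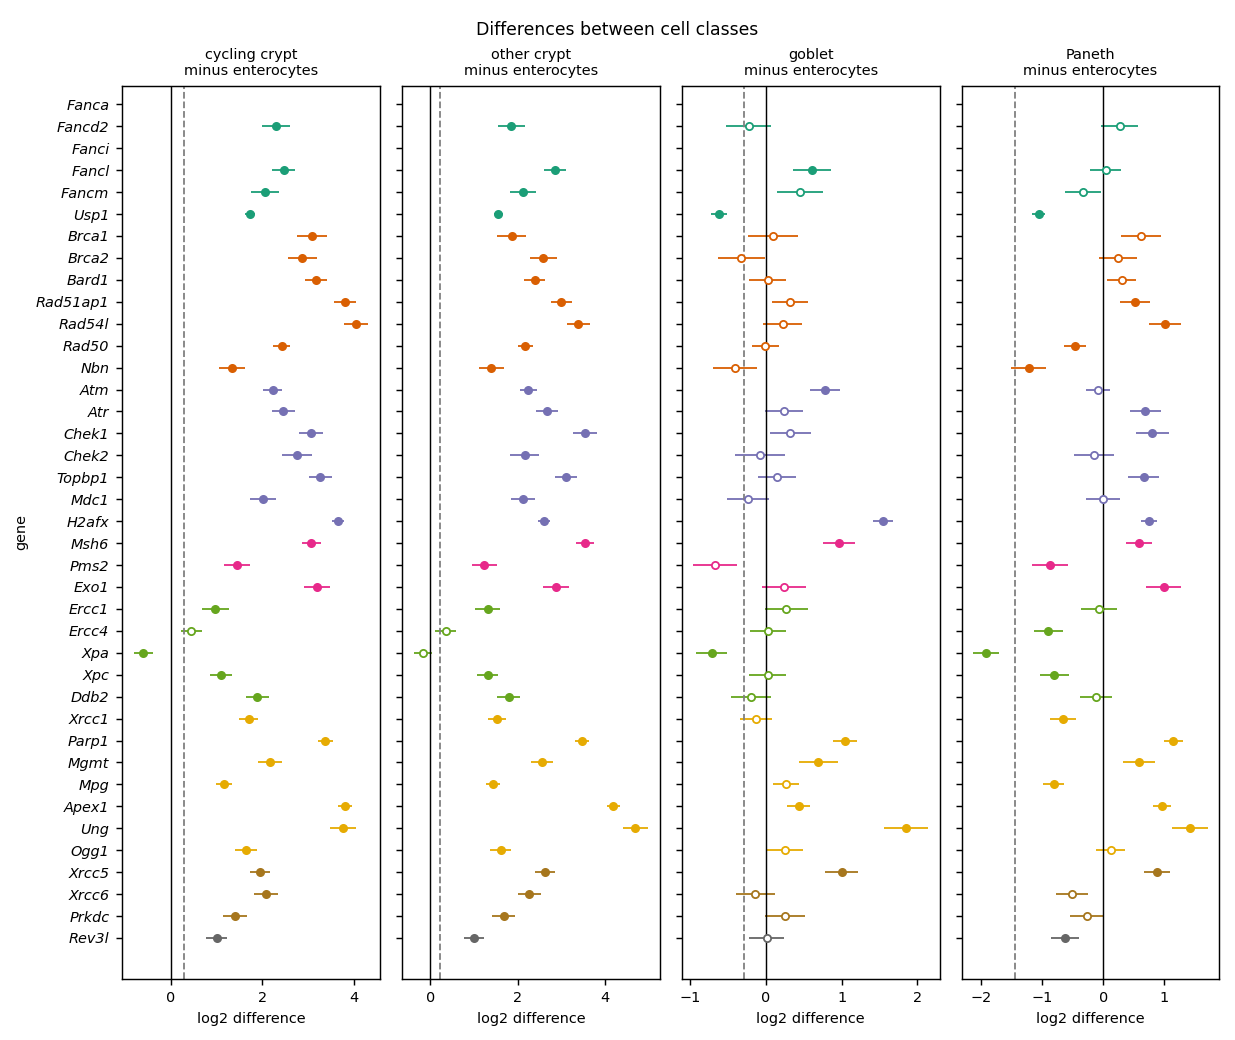
Log2 difference of each member between a class and enterocytes, with bars of 1 SE from limma over 3 libraries; filled points were called at an adjusted p under 0.05, and the dashed line is the median of all genes tested. In both crypt panels nearly all points are filled and right of the dashed line, while in the goblet and Paneth panels they lie on both sides of 0.

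The Fanconi anaemia genes took 3.97 to 4.23 times the share in cycling crypt cells that they took in enterocytes, or 8.91 to 11.3 times without Usp1, which holds most of their UMIs. Usp1, the protease that strips ubiquitin from Fancd2 and so resets the pathway, stood at 99.7, 81.5 and 83.4 CPM in cycling crypt cells and at 28.5, 25.2 and 24.5 in enterocytes. These ranges lay far apart, and the difference was 1.72 ± 0.11 (SE, adjusted p = 3.55e-10). Fancl, the ubiquitin ligase subunit of the core complex, stood at 14.8, 14.1 and 12.1 against 2.06, 1.52 and 1.43 (2.46 ± 0.25, adjusted p = 1.72e-07). Fancd2, the protein that Fancl marks, stood at 6.11, 7.31 and 5.94 against 0.49, 0.457 and 0.573 (2.30 ± 0.30), and the ranges were far apart. Fancm, the translocase that brings the core complex to DNA, stood at 6, 3.29 and 5.94 against 0.392, 0.61 and 0.287 (2.06 ± 0.30), and B + A 0 was the lowest library in cycling crypt cells and the highest in enterocytes. The untested pair were sparse in every class. Fanci, the partner of Fancd2, was read from 83 UMIs in cycling crypt cells (5.09, 2.93 and 4.22 CPM) and from 4 in enterocytes, and Fanca, a core subunit, from 85 and 17.

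The genes of homologous recombination took 8.35 to 11 times the share, a range that the Fanconi anaemia genes other than Usp1 overlapped, and 12 to 21.9 times without Rad50. Rad54l, a motor protein of strand exchange, showed the largest difference of all members. It stood at 27.7, 25.6 and 20.1 in cycling crypt cells and at 0.392, 0.61 and 0.573 in enterocytes, a difference of 4.05 ± 0.26 (16.6-fold on the fitted scale, adjusted p = 4.98e-10). Rad51ap1, an accessory protein of strand exchange, stood at 20.4, 21.8 and 19.9 against 0.49, 0.762 and 0.43 (3.80 ± 0.24, adjusted p = 3.03e-10). Both were thus rare in enterocytes, whatever the treatment. Brca1 and Bard1 form the ligase that opens the way to recombination. Brca1 stood at 11, 11.9 and 8.63 against 0.196, 0.305 and 0.573 (3.08 ± 0.33, adjusted p = 3.21e-07), and Bard1 at 13, 12.4 and 13.4 against 0.392, 0.915 and 0.43 (3.16 ± 0.24). All enterocyte values of both lay under 1 CPM. Brca2, which acts in the same pathway once the end has been trimmed, stood at 11.2, 10.1 and 8.63 against 0.098, 0.915 and 0.573 (2.87 ± 0.31). The genes of the complex that holds broken ends, Rad50 and Nbn, differed less, by 2.42 ± 0.18 and 1.33 ± 0.29. Rad50 stood at 50.1, 45.2 and 45.3 in cycling crypt cells against 8.72, 6.86 and 8.32 in enterocytes, and Nbn at 8.94, 11 and 8.44 against 2.65, 2.9 and 4.01.

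Damage signalling genes took 10.1 to 13.9 times the share, and 8.98 to 10 times without H2afx. H2afx, the histone variant that is phosphorylated around a break, stood at 172, 142 and 136 in cycling crypt cells, 72.8, 74.1 and 71.4 in other crypt cells, 37, 37.6 and 29.2 in goblet cells, 18.1, 21 and 19.1 in Paneth cells and 9.5, 13.6 and 10.6 in enterocytes. None of these 5 ranges overlapped, and the difference between cycling crypt cells and enterocytes was 3.64 ± 0.13 (adjusted p = 2.79e-13). Topbp1, the activator of Atr, stood at 43.1, 38.9 and 31.8 against 3.33, 2.44 and 3.44 (3.26 ± 0.25, adjusted p = 4.11e-09), and Chek1, the kinase that Atr acts through, at 12.8, 11.3 and 11.3 against 0.294, 0.61 and 0.717 (3.06 ± 0.27). The kinases themselves were lower in enterocytes as well. Atm, which responds to breaks, stood at 23.3, 26 and 21.3 against 5.1, 4.88 and 3.01 (2.22 ± 0.20), and Atr, which responds to stalled forks, at 7.81, 8.23 and 5.18 against 0.882, 0.152 and 0.43 (2.45 ± 0.25). Chek2, the target of Atm, stood at 9.96, 11.5 and 9.78 against 0.392, 1.22 and 0.573 (2.75 ± 0.33). Mdc1, which binds phosphorylated H2afx, differed by 2.01 ± 0.28, and no range of these 4 genes overlapped between the classes.

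Of the mismatch repair genes, Msh6, which recognises mispairs, stood at 16.8, 14.4 and 13.6 in cycling crypt cells against 1.37, 1.22 and 0.287 in enterocytes (3.07 ± 0.21, adjusted p = 1.26e-09). Exo1, the nuclease that removes the faulty strand, stood at 9.62, 13.5 and 9.59 and had no UMI in enterocytes of AOS 0 and B + A 0, which allows up to 0.294 and 0.457 CPM (3 UMIs), and 8 UMIs (1.15 CPM) in those of B + A 10. Pms2, the endonuclease subunit, stood at 7.36, 7.68 and 8.24 against 2.94, 1.68 and 2.15 and differed by 1.44 ± 0.29 (adjusted p = 0.0003). Base excision and direct repair genes took 7.96 to 8.05 times the share, and 5.22 to 5.52 times without Apex1. Apex1, the endonuclease that cuts at sites without a base, stood at 149, 139 and 137 against 10.7, 8.69 and 8.17 (3.81 ± 0.15, adjusted p = 9.74e-13). Ung, the glycosylase that takes uracil out of DNA, stood at 22.9, 26.3 and 22.8 against 0.588, 0.61 and 1.43 (3.76 ± 0.29), and Parp1, the sensor of nicks, at 52.9, 49.2 and 52.3 against 3.14, 3.96 and 5.3 (3.37 ± 0.16). The genes that act on alkylated bases are Mgmt and Mpg. Mgmt, which takes alkyl groups off guanine, stood at 6.11, 6.22 and 6.33 against 0.784, 1.07 and 0.143 (2.16 ± 0.26), and Mpg, the glycosylase for alkylated purines, stood at 28.3, 30.3 and 22.4 against 13.8, 12 and 9.03 (1.16 ± 0.17, adjusted p = 1.08e-05). The enterocyte level of Mpg was 43% of that in cycling crypt cells. Xrcc1, the scaffold for nick sealing, stood at 28, 27.4 and 26.5 against 6.47, 7.47 and 9.46 (1.70 ± 0.21), and Ogg1, the glycosylase for oxidised guanine, at 7.47, 4.21 and 4.99 against 1.57, 1.22 and 0.573 (1.63 ± 0.24).

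The 5 genes of nucleotide excision repair together took 1.07 to 1.61 times the share in cycling crypt cells, the lowest ratio of the 8 groups by mean. Xpa held most of their enterocyte UMIs, and without it the ratio was 2 to 3.01, overlapping that of Rev3l (1.82 to 2.74). Xpa, which verifies the lesion and holds the opened strand, stood at 12.9, 11.7 and 10.7 in cycling crypt cells and at 23, 16.6 and 15.9 in enterocytes, a difference of -0.60 ± 0.21 (adjusted p = 0.016). Every library showed that order, but the call was lost without AOS 0, without B + A 10 and when ribosomal and defensin genes were left out of the scaling. Ercc4, which with Ercc1 forms the nuclease that cuts beside a lesion or crosslink, stood at 5.09, 5.3 and 6.33 against 5.29, 3.05 and 3.3 (0.45 ± 0.24, adjusted p = 0.0972). The ranges of Ercc4 overlapped, with AOS 0 the highest library in enterocytes and the lowest in cycling crypt cells. Ercc1 itself was higher in cycling crypt cells by 0.97 ± 0.29 (adjusted p = 0.00571), Xpc, which finds the distorted helix, by 1.10 ± 0.24, and Ddb2, which binds light-induced lesions, by 1.89 ± 0.26, from 7.13, 7.86 and 5.94 against 1.57, 0.915 and 1. The genes of end joining took 4.43 to 5.6 times the share. The Ku subunits Xrcc5 and Xrcc6, which cap a broken end, differed by 1.95 ± 0.22 and 2.07 ± 0.26. Xrcc6 stood at 25.8, 21.8 and 20.7 against 5.1, 4.42 and 4.44, and their kinase Prkdc was 2.65-fold higher (adjusted p = 0.000189). Rev3l, the catalytic subunit of the translesion polymerase zeta, stood at 11.2, 14.6 and 9.01 against 6.17, 5.34 and 4.3 (1.00 ± 0.23, adjusted p = 0.000883).

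**Figure D3:**
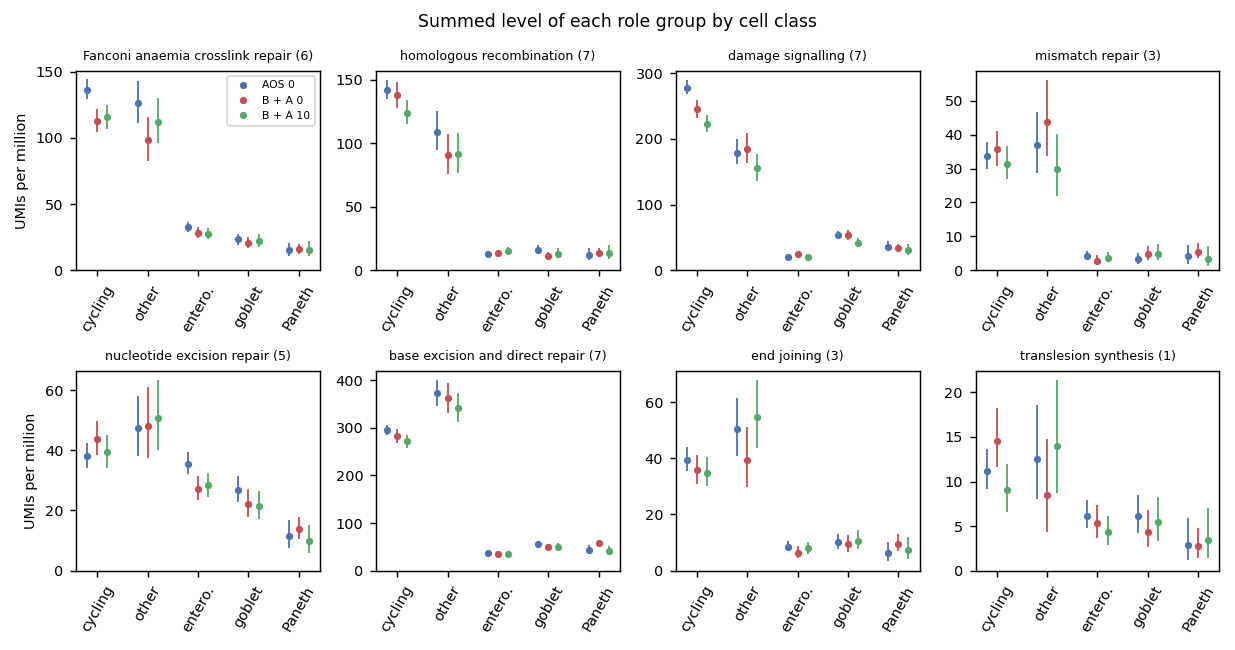
Summed level of each role group in CPM by cell class, 1 point per library with its exact 95% counting interval; each panel starts at 0 and has its own scale. The smallest steps from enterocytes to cycling crypt cells are those of nucleotide excision repair (1.07 to 1.61 times) and translesion synthesis (1.82 to 2.74 times).

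Cycling and other crypt cells, which held the S phase list at like levels, differed in few members, in shares near those of all genes tested. The ranges of 26 of the 39 genes overlapped, 8 lay higher in cycling crypt cells (Fanca, Fancd2, Brca1, Bard1, Rad51ap1, Rad54l, Chek2 and H2afx) and 5 lower (Xpa, Mgmt, Apex1, Ung and Xrcc5), where 18.8% of genes tested lay higher and 9.64% lower by the same rule. In limma 3 of 37 were called higher, against 7.32% of all genes, and 0 lower, against 2.83%. The called genes were H2afx (1.03 ± 0.13, adjusted p = 0.000103), Brca1 (1.21 ± 0.33, adjusted p = 0.0287) and Rad51ap1 (0.80 ± 0.24, adjusted p = 0.0406). Brca1 stood at 3.12, 5.65 and 3.34 in other crypt cells. On the opposite side Ung stood at 41.1, 46.6 and 53.4 in other crypt cells, all above the highest value of 26.3 in cycling crypt cells (-0.94 ± 0.29, adjusted p = 0.0538), and Apex1 at 202, 182 and 168 against 149, 139 and 137 (-0.38 ± 0.15, adjusted p = 0.133). When every column was scaled to an equal median of all genes the split was 2 higher (Brca1 and H2afx) and 3 lower (Ung, Xrcc5 and Apex1), and leaving out any 1 library left 1 gene called higher.

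Within cycling crypt cells, 23 of 38 members tested were higher in the S phase cluster than in the cluster of G2 and mitosis and none was lower, against 14.5% of 10116 genes called higher. The median was 0.76 for the members and -0.01 for all genes. Ung stood at 33.7, 35.3 and 32 in the S phase cluster and at 4.3, 3.83 and 4.59 in that of G2 and mitosis, a difference of 2.73 ± 0.29 (6.62-fold, adjusted p = 7.08e-07). Next came the mismatch repair genes Exo1 (1.93 ± 0.32, adjusted p = 0.000125) and Msh6 (1.89 ± 0.26, adjusted p = 1.69e-05), with Mdc1 at 1.85 ± 0.35 and Bard1 at 1.70 ± 0.25. All 3 mismatch repair genes and 6 of 7 genes of homologous recombination were called higher, but 1 of 5 genes of nucleotide excision repair (Ddb2) and 0 of 3 of end joining. Apex1 stood at 188, 164 and 167 against 83.3, 76.7 and 75.8 (1.13 ± 0.14, adjusted p = 6.67e-06).

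How many members differed between the phases depended on which clusters were set against each other. The S phase cluster, led by Olfm4, scored as high on the list for G2 and mitosis as the cluster named for it (1.90 in both, in standard deviations over clusters), while on the list of other crypt cells they scored 1.58 and -0.21, so phase and crypt markers cannot be told apart in this pair. At a finer clustering (resolution 1.5) 8 were higher and 1 (H2afx) lower. Setting the finer S phase cluster against the Olfm4-led cluster of G2 and mitosis alone, a choice made after the data were seen, 2 were higher (Ung at 2.11 ± 0.30, adjusted p = 0.00034, and Msh6 at 0.99 ± 0.25, adjusted p = 0.0372) and 1 lower, against 2.26% of genes called in either direction. With each cell classed by its own marker scores, 7 were higher and 1 lower. No share of all genes is set beside the counts at resolution 1.5 and by cell scores, so these are not compared with other genes. H2afx changed direction, from 0.47 ± 0.14 in the coarse pair to -0.59 at resolution 1.5, -0.97 against the Olfm4-led cluster and -0.93 by cell scores, whereas Ung and Msh6 were called higher in S phase in all 4.

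**Figure D4:**
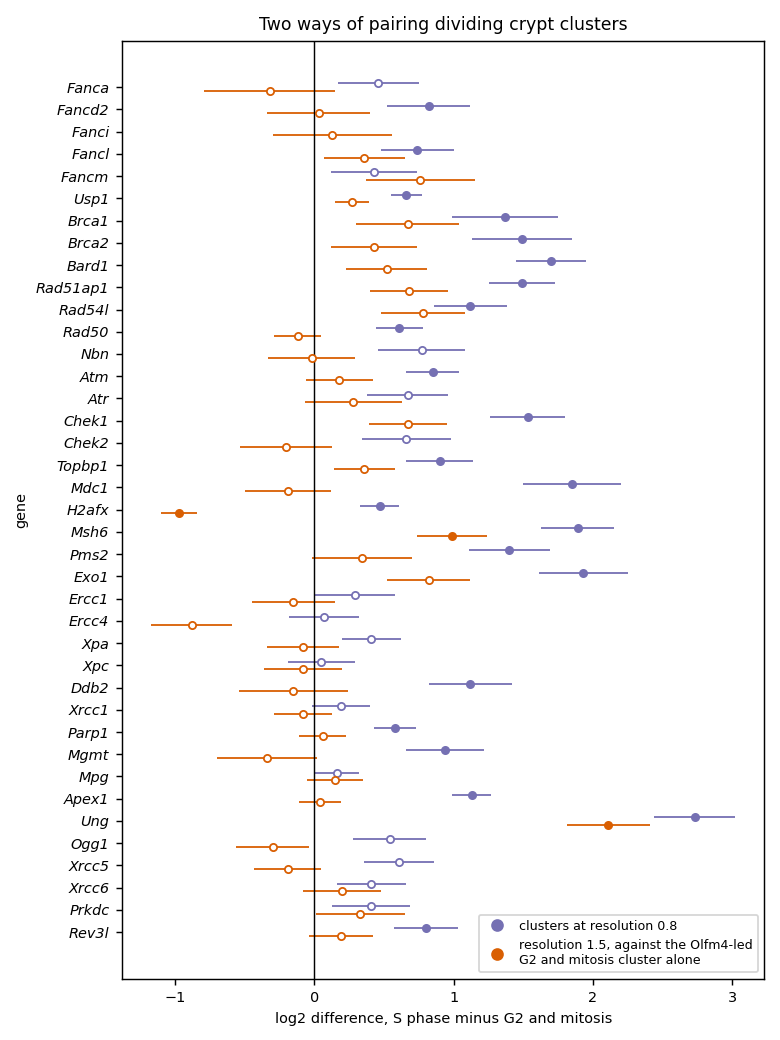
Log2 difference of each member between S phase and G2 and mitosis, with bars of 1 SE from limma; violet, the clusters at resolution 0.8; orange, the S phase cluster against the Olfm4-led cluster of G2 and mitosis at resolution 1.5; filled points were called. The violet points all lie right of 0 and the orange ones lie on both sides of 0, with Ung (2.11) and Msh6 (0.99) filled and positive and H2afx filled at -0.97.

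Goblet cells held a low level of most members. In limma 9 of the 37 were higher than in enterocytes and 2 lower, against 17.5% and 42.4% of all genes. Ung stood at 5.78, 5.92 and 5.16 in goblet cells (1.85 ± 0.29, adjusted p = 4.19e-05), H2afx differed by 1.55 ± 0.13 (adjusted p = 3.07e-08) and Parp1 by 1.04 ± 0.16, and the others called higher were Xrcc5, Msh6, Atm, Mgmt, Fancl and Apex1. Usp1 stood at 17.5, 16.6 and 15.7, below every enterocyte value (-0.62 ± 0.11, adjusted p = 0.000111), and Xpa at 13, 9.57 and 9.81 (-0.72 ± 0.21). Since the median gene was lower in goblet cells by 0.29 on the log2 scale, the fit was repeated with equal medians, which gave 14 higher and 0 lower against 29.7% of all genes called higher. Apex1 turned from 0.43 to -0.26 and -0.09 at the coarser and finer clusterings, and 1 of the 4 goblet clusters (379 cells) had 64.6% of its cells among the highest doublet scores. The goblet clusters also differed in level, over all libraries together. Ung stood at 13 CPM in the cluster led by Agr2 and Ccl9 (610 cells) and at 1.03 in that led by Clca1 and Zg16 (772 cells). In the same clusters Parp1 stood at 17.8 and 3.1, and Apex1 at 22.3 and 3.62.

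In Paneth cells the 10 marker genes alone, defensins among them, took 536981 to 572948 CPM, which lowers the share left to any other gene. The median difference of all genes from enterocytes was -1.45 on the log2 scale, and 79.6% of genes were called lower and 7.65% higher. Against that background 13 members were higher and 10 lower, with a median of 0.04. Ung (1.42 ± 0.29, adjusted p = 0.000259), Parp1 (1.15 ± 0.16) and Apex1 (0.96 ± 0.15) were higher, and with Mgmt they made 4 of the 7 genes of base excision and direct repair, of which 2 (Xrcc1 and Mpg) were lower. Apex1 stood at 19.4, 25.1 and 13.2 against 10.7, 8.69 and 8.17 in enterocytes. Rad54l, Exo1, Chek1, Atr, Topbp1, H2afx, Msh6, Rad51ap1 and Xrcc5 were higher as well. Xpa stood at 3.3, 5.93 and 3.43 and was the lowest relative to enterocytes (-1.92 ± 0.21, adjusted p = 1.41e-07), followed by Nbn (-1.22 ± 0.29) and Usp1 (-1.06 ± 0.11). With equal medians 34 were higher and 1 (Xpa) lower, against 36.1% of all genes called higher, and 16 of the 37 members changed direction. At resolution 1.5 the Paneth clusters held 228, 108 and 99 cells. The cluster of 108 scored 0.76 on the list of other crypt cells, against -0.54 and 0.05. It scored 0.19 on the S phase list, against -0.78 and -0.58, and 0.29 on that for G2 and mitosis, against -0.64 and -0.55. Of its cells 7.41% were among the highest doublet scores, against 1.32% and 3.03%. Over all libraries together, Apex1 stood at 13.1, 39.3 and 21.6 CPM in these clusters, Parp1 at 4.79, 26.5 and 9.62, and Rad54l at 0.737, 5.48 and 0.802. Of the 13 members called higher above, all but Atr (0.737, 2.28 and 2.4) stood highest in the cluster of 108 cells. No share of all genes is set beside this, so it is not compared with other genes.

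The treatments were compared as ratios of CPM within a class, with exact 95% binomial intervals that cover counting error only, and no test was possible. In cycling crypt cells all 39 genes together stood at 0.933 (0.9 to 0.966) of the AOS 0 level in B + A 0, and at 0.934 (0.897 to 0.973) of the B + A 0 level in B + A 10. By phase, the sum stood at 1169, 1037 and 988 CPM in the S phase cluster and at 641, 590 and 572 in that of G2 and mitosis. The latter cluster held 316 of 827, 180 of 601 and 338 of 947 cycling crypt cells, so the mix of phases in the pooled sum differed between libraries. The counting intervals of AOS 0 and B + A 0 lay apart in the S phase cluster (1141 to 1198 and 1005 to 1069). In that of G2 and mitosis they overlapped (614 to 669 and 553 to 630). No median of all genes was taken by phase, so these sums are not compared with other genes. From AOS 0 to B + A 0 the pooled sum (log2 ratio -0.10) lay near the shift of the class as a whole. The median log2 ratio was -0.11 over the 15 members with at least 200 UMIs in both libraries together. Over all 6430 such genes it was -0.09. None of the 15 passed a ratio of 1.5 either way, against 2.74% of all genes. From B + A 0 to B + A 10 none of 13 did, against 1.14%, with medians of -0.07 and -0.02. The log2 ratio of the sum between these libraries was -0.10, below the median of all genes. From AOS 0 to B + A 10 the sum stood at 0.871 (0.84 to 0.904), and all 14 members measured lay below 1 with a median of -0.20, against -0.12 over all genes.

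The members with the most molecules gave the narrowest intervals. From AOS 0 to B + A 0, Usp1 went from 99.7 to 81.5 CPM, a ratio of 0.818 (0.728 to 0.917), and H2afx from 172 to 142, a ratio of 0.827 (0.757 to 0.902). Their intervals alone among the 15 left out 1, and no share of all genes is set beside this, so it is not compared with other genes. Apex1 stood at 0.929 (0.849 to 1.02), and the highest ratio was that of Ung at 1.15 (0.923 to 1.43). From B + A 0 to B + A 10, Usp1 stood at 1.02 (0.894 to 1.17), H2afx at 0.956 (0.862 to 1.06) and Parp1, the highest, at 1.06 (0.896 to 1.26), and the lowest was Mpg at 0.739 (0.578 to 0.942). Under 200 UMIs, Fancm stood at 0.549 (0.302 to 0.952) and Ogg1 at 0.563 (0.334 to 0.917) in B + A 0 relative to AOS 0, on 18 and 23 UMIs in B + A 0, and Exo1 at 1.41 (1.02 to 1.94). These are examples whose intervals left out 1, from the members below that limit, whose ratios are not all given here.

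By role, the Fanconi anaemia group stood at 0.83 (0.752 to 0.915) in B + A 0 relative to AOS 0, of which Usp1 held 446 of 619 UMIs in B + A 0. Damage signalling stood at 0.881 (0.824 to 0.942), or 0.969 without H2afx. Homologous recombination, at 0.968 (0.883 to 1.06), base excision and direct repair, at 0.958 (0.899 to 1.02), and end joining, at 0.907 (0.758 to 1.08), had intervals that held 1, as did mismatch repair, at 1.06 (0.878 to 1.27), and nucleotide excision repair, at 1.15 (0.974 to 1.37). Rev3l stood at 1.31 (0.96 to 1.77) in B + A 0 and at 0.616 (0.42 to 0.894) of that level in B + A 10, on 99, 80 and 47 UMIs in the 3 libraries. In B + A 10 relative to B + A 0 the Fanconi anaemia group stood at 1.02 (0.913 to 1.15) and damage signalling at 0.907 (0.837 to 0.981).

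**Figure D5:**
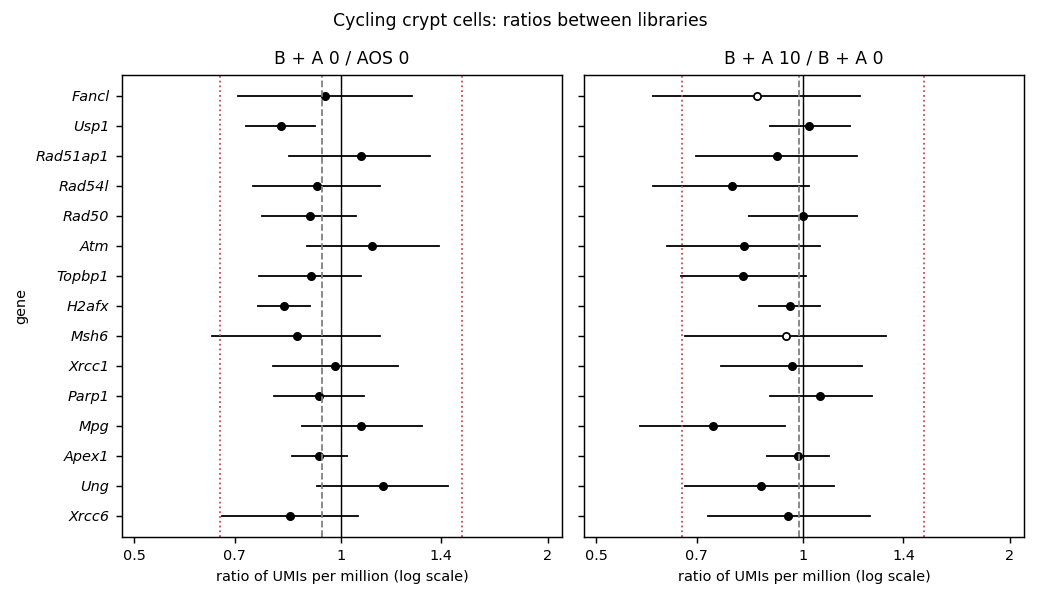
Ratio of CPM between libraries in cycling crypt cells (log axis) with exact 95% binomial counting intervals, for 15 members; open points had under 200 UMIs in that pair, the dashed line is the median of all genes and the dotted lines mark ratios of 1.5 and 0.667. All points lie between the dotted lines, with Usp1 (0.818) and H2afx (0.827) lowest in the left panel and Mpg (0.739) lowest in the right.

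Other classes had fewer molecules. In other crypt cells 3 members had 200 UMIs, with ratios of 0.805 to 1.02 for B + A 0 over AOS 0 and 0.923 to 1.04 for B + A 10 over B + A 0, and none passed 1.5-fold, against 2.69% and 1.36% of all genes. In enterocytes 3 and 2 members had that many and none passed, against 2.4% and 1.81%. Xpa in enterocytes stood at 0.722 in B + A 0 relative to AOS 0 with an interval that left out 1, and from AOS 0 to B + A 10 Mpg passed, at 0.654, as did 5.39% of genes. The sum of all 39 genes from AOS 0 to B + A 0 stood at 0.936 (0.87 to 1.01) in other crypt cells, 0.91 (0.839 to 0.987) in enterocytes and 0.894 (0.815 to 0.981) in goblet cells. In Paneth cells it stood at 1.17 (1.02 to 1.34), where the median log2 ratio of all genes was 0.23.

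The other genes of these pathways, 118 in the table, were read from lists of the same roles. Of 101 tested, 77 were higher in cycling crypt cells than in enterocytes and 1 was lower, with a median of 1.17, where 45.5% and 26.6% of all genes were. Of 14 other Fanconi anaemia genes 11 were higher, with a median of 1.14, and the 4 with the most UMIs were Faap20 (0.78 ± 0.23), Ube2t, the conjugating enzyme of the pathway (3.64 ± 0.24), Wdr48, the partner of Usp1 (0.84 ± 0.18), and Dclre1a (1.30 ± 0.19). All 19 other signalling genes tested were higher, among them Rpa2, a subunit of the single-strand binding protein (3.33 ± 0.15). Of 6 other end joining genes 1 was higher, and Lig4 (-0.17 ± 0.31, adjusted p = 0.628) and Xrcc4 (-0.08 ± 0.26, adjusted p = 0.79), which seal the joined ends, did not pass. Between S phase and G2 and mitosis 30 of 104 were higher and 1 lower, where 14.5% of all genes were higher. Only the members were kept out of the clustering, so these other repair genes could take part in it. Pcna and Lig1 among them were also S phase markers that named the classes. Their part in the counts of 77 and 30 is therefore no independent result. A list of 20 p53 targets, none of them a member, was read as well. Of 9 with at least 200 UMIs in cycling crypt cells 1 passed 1.5-fold from AOS 0 to B + A 0, downward (Cdkn1a, an inhibitor of cell division, named after its value was seen), and the median log2 ratio was -0.18. Of 14 p53 targets tested, 4 were higher and 6 lower in cycling crypt cells than in enterocytes, beside the 45.5% and 26.6% of all genes.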

How the data were processed

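Cells of the small intestine were captured in 10x droplets with 3′ tags. Per the labels and the study's methods, the authors counted UMIs with Cell Ranger 2.2.0 on mm10 and deposited natural log values, ln(1 + UMIs per 10000 UMIs of the cell). Whole UMIs were recovered from these steps (100% of 24333763 values, within 0.01 of a UMI). Libraries were joined and clustered with Seurat 5.3.0 (2000 variable genes without the 39 members, 20 dimensions, resolution 0.8), giving 21 clusters. Clusters were named from 124 listed markers (2 absent) with a scoring rule chosen once the clusters had been looked at. Doublets were kept, and the 633 cells with the top 5% of scores were left out as an alternative. Class sums in 15 columns were tested with limma 3.58.1 on log2(CPM + 1), CPM being UMIs per 1000000, with a library block, a minimum mean of 2 and Benjamini-Hochberg adjustment over all genes. The 3 libraries differ in treatment, so p-values measure the spread between them and cover no replicate of a treatment. Treatment ratios with exact 95% binomial intervals took genes with at least 200 UMIs over both libraries and used 1.5-fold (or 0.667) as the limit. Intervals cover counting error only. In simulated data limma recovered 4% of 1.5-fold and 56% of 2-fold changes between cycling crypt cells and enterocytes over 10038 genes. Mitochondrial genes listed numbered 0. The members and all lists were chosen with earlier results of these data known. Named genes were members, and the other repair genes with the most UMIs in each role, some of which are not reported here.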

Additional observations from a re-analysis of the deposited data

How the results depend on the processing

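No paired analysis was possible because each treatment has 1 library. Over the alternatives for single members, direction and call were the same in 523 of the values for cycling crypt cells against enterocytes (4 lost and 3 gained the call) and in 528 for other crypt cells (2 gained it). Where a cause is not given below, the cause was not tested. A count given below without a share of all genes shows only how the processing moved it. Such a count does not compare the members with other genes. A minimum mean of 10 CPM, which leaves fewer genes, gave 11 members higher in cycling and 11 in other crypt cells than in enterocytes, 5 in goblet cells, 5 higher and 5 lower in Paneth cells, 9 in S phase and 1 in cycling against other crypt cells.

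For cycling against other crypt cells, cell scores gave 0 higher and 1 lower, pseudocount 0.5 gave 1 higher, pseudocount 5 gave 5 higher and 3 lower, no filter 1 higher, scaling without ribosomal and defensin genes 1 higher, resolution 1.5 gave 2 lower, no trend 1 lower, and equal medians 3 lower. Leaving out a library gave 1 to 1 higher and 0 to 1 lower (1 without AOS 0). Xpa, lower in cycling crypt cells than in enterocytes, gave 0 calls without ribosomal and defensin genes and 0 to 1 when a library was left out. For goblet cells, resolution 1.5 gave 5 higher, equal medians 14 higher and 0 lower, and leaving out a library 5 to 8 higher (5 without B + A 10), and Apex1 turned to -0.26 at resolution 0.4 and -0.09 at 1.5. For Paneth cells, resolution 0.4 gave 5 higher, pseudocount 5 gave 8 higher, cell scores 6 lower, and leaving out a library 7 to 11 higher (7 without B + A 0) and 6 to 9 lower (6 without AOS 0).

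Scaling without ribosomal and defensin genes gave 29 higher and 1 lower in Paneth cells, and turned Ddb2 to 0.76, Usp1 to 0.31, Xpc to 0.21, Ercc1 to 1.12, Xrcc1 to 0.61, Atm to 1.16, Rev3l to 0.57, Mpg to 0.50, Rad50 to 0.84, Xrcc6 to 0.68 and Ercc4 to 0.13. Equal medians, chosen after the data were seen, gave 34 higher and 1 lower there, and turned Ddb2 to 1.36, Nbn to 0.27, Usp1 to 0.42, Chek2 to 1.33, Pms2 to 0.62, Xpc to 0.68, Ercc1 to 1.41, Xrcc1 to 0.82, Atm to 1.39, Rev3l to 0.85, Mpg to 0.68, Rad50 to 1.02, Fancm to 1.15, Xrcc6 to 0.98, Ercc4 to 0.58 and Prkdc to 1.22.

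Between S phase and G2 and mitosis, resolution 1.5 gave 8 higher and 1 lower (H2afx at -0.59), cell scores 7 and 1 (Fancd2 at -0.37, H2afx at -0.93), and the Olfm4-led cluster alone, also chosen after the data were seen, 2 and 1 (Ddb2 at -0.15, Mgmt at -0.34, H2afx at -0.97, Rad50 at -0.12, Mdc1 at -0.19). Further members lay below 0 against the Olfm4-led cluster, among them Ercc4 at -0.88 and Fanca at -0.32, neither of them called. With at least 50 UMIs, 3 members passed 1.5-fold from AOS 0 to B + A 0 in cycling crypt cells and 2 from B + A 0 to B + A 10, 4 and 4 in other crypt cells and 1 and 1 in enterocytes. A lower limit on the fold gave 2 from B + A 0 to B + A 10 in cycling crypt cells and 1 from AOS 0 to B + A 0 in enterocytes. Without H2afx the damage signalling ratio was 0.969. Leaving out the member with the most UMIs, chosen after the data were seen, moved the mean ratio of cycling crypt cells to enterocytes to 9.88 for Fanconi anaemia, 16.1 for homologous recombination, 9.51 for damage signalling, 2.44 for nucleotide excision and 5.4 for base excision and direct repair.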

Other observations

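Members were also read in the clusters left out of the 5 classes, as CPM over all libraries together, with no test. Enteroendocrine cells (156 cells, led by Gip) held 652 for all 39 genes, against 1080 in the S phase cluster, and were the highest of the 21 clusters for Fancm, Xpa, Parp1, Mgmt, Xrcc5 and Rev3l. There Rev3l stood at 37.8 (13.7 in the S phase cluster), Xpa at 26.3 (12.9) and Parp1 at 67.6 (58.2). The lead of Xpa was narrow, since it stood at 25.3 in the tuft cell cluster and at 24.4 in an enterocyte cluster (340 cells). Xrcc5 stood at 17.2 against 16.8 in tuft cells, Fancm at 9.16 against 8.42 there, and Mgmt at 10.3 against 8.48 in other crypt cells. These levels come from few cells and have no interval, so close ranks cannot be told apart. The largest cluster left out (824 cells, led by Dmbt1) held 253 for all 39 genes. That lay between the enterocyte clusters (125 to 183) and the crypt clusters (611 to 1080). The cluster with T cell genes (313 cells, led by Gzma) held 696, with Usp1 at 84.3 and H2afx at 98.7. A cluster led by Agr2 with Ube2c among its leading genes (425 cells) held 723, with H2afx at 145, and 27.3% of its cells were among the highest doublet scores. The tuft cell cluster held 28 cells, too few for its levels to be read gene by gene.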
